A study of Bos taurus with 12 samples.

Results

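The genes described here are 37 enzymes that make serine, proline, asparagine and polyamines, move 1-carbon units on folate, and run the methionine cycle, transsulfuration and glycine cleavage. They were taken by gene symbol from the table of RNA-seq counts, where all 37 were found among 32637 listed genes, and 36 of them had enough counts to be tested. RNA-seq was performed on bovine expanded blastocysts produced in vitro, fertilized with semen of bulls used in rotation on oocytes from slaughterhouse ovaries, and collected on Day 7 or Day 8. The groups were 6 female and 5 male libraries, with no treatment named in the labels. Each was prepared with SMART-Seq HT PLUS, a kit that amplifies full-length cDNA. Embryos were cut evenly into 2 parts, a part for sexing by PCR and the other for RNA-seq. The RNA-seq parts of 2 embryos of like sex were pooled for each library. A replicate is therefore a pool and not an embryo, and nothing in the labels says that the pools came from separate cultures, so p-values measure only the spread between these pools. The sex difference was the question of the study, and log2 fold changes are given as male minus female, so that positive values are higher in males.

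Serine is made from a glycolytic intermediate in 3 enzymatic steps, and its hydroxymethyl carbon is passed to tetrahydrofolate by the serine hydroxymethyltransferases of the mitochondrion and the cytosol. The folate-bound carbon serves purine and thymidylate synthesis and the remethylation of homocysteine, which links it to S-adenosylmethionine, the methyl donor of DNA and histone methylation and the source of the aminopropyl groups of polyamines. Proline synthesis from glutamate oxidizes NADPH and NADH, and the early embryo draws on these pathways for the nucleotides of its rapid divisions.

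Female libraries held 6664112 to 16162985 counted reads and male libraries 9942952 to 21392764, and levels are given as CPM, which are counts normalized for library size with TMM factors. On 5 Y-linked genes the males held between 1934 and 5254 counts and the females between 0 and 45. Inner cell mass markers summed to between 560 and 980 CPM in females and between 792 and 1076 CPM in males (6 of 7 listed genes, TDGF1 not being in the table), and hypoblast markers to 228 to 621 and 208 to 467 CPM. The 10 trophectoderm markers summed to 7879 to 23154 CPM in females and 9195 to 36145 CPM in males, with male replicate 5 highest, and the 7 cumulus cell markers to 7.19 to 32.7 and 5.38 to 29.5 CPM. The sums of all 4 lists overlapped between the sexes. Male replicate 5 stood apart, being the deepest library with the fewest genes detected (14937) and holding the highest value of 24.9% of all tested genes. In bulk samples such as these, fewer cells of a type and less RNA per cell cannot be told apart.

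The sexes were compared with edgeR's quasi-likelihood test on 12802 genes, with the library number as a block. A gene was called at a Benjamini-Hochberg adjusted p (FDR) under 0.1 together with a fold change over 1.5. By that rule 1 of the 36 tested members, ADI1, rose in males and 0 rose in females, against 0.414% of all tested genes called higher in males and 1.5% called higher in females. At an unadjusted p under 0.05, 8 members were higher in males (ADI1, PYCR3, SHMT2, ALDH18A1, PYCR1, CBS, SHMT1 and ASNS) and 1 in females (MTHFD2L), where 6.26% and 6.95% of all tested genes were. DESeq2 called 5 members higher in males (ADI1, SHMT2, ALDH18A1, PYCR1 and PYCR3) and 0 higher in females, against 1.04% and 3.14% of the 15693 genes to which it gave an adjusted p. All tested members but SMS are autosomal. Of the 12172 autosomal tested genes, edgeR called 42 higher in males and 44 higher in females, and DESeq2 called 141 and 192. At an unadjusted p under 0.05 in edgeR, 788 of these autosomal genes were higher in males and 562 in females. In 2 members, ADI1 and PYCR3, every male library was above every female library, a separation seen in 1.43% of tested genes, and in 0 members were all females above all males, where 1.88% of tested genes were. Among the 12172 autosomal tested genes, 172 had all males above all females and 88 had all females above all males. The members' log2 fold changes had a median of 0.22, from -1.11 to 1.39, with 24 above 0 and 12 below, whereas 50.5% of all tested genes were above 0 and their median was 0.01 (0.02 on the autosomes). The median size of the difference, whatever its sign, was 0.39 in members and 0.28 in all tested genes.

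**Figure D1:**
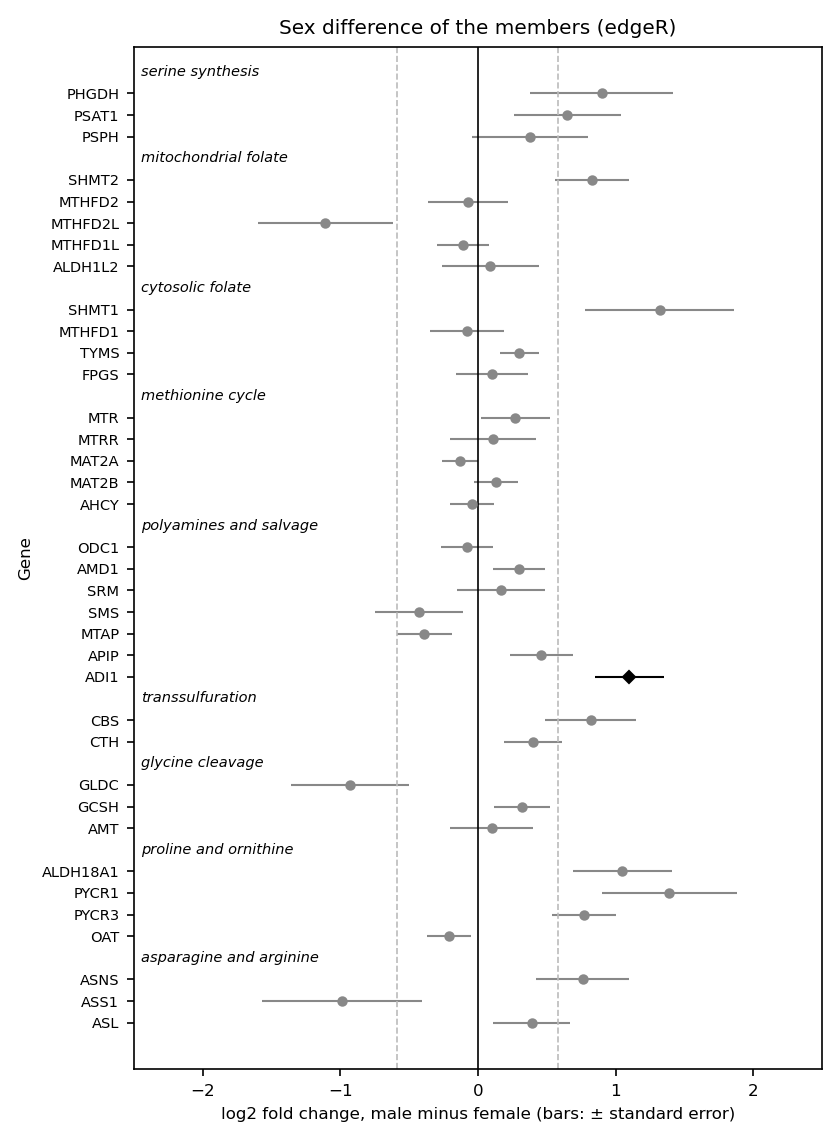
Sex difference of the 36 tested members, grouped by role. The x axis is the log2 fold change of edgeR, male minus female, bars are ± 1 standard error, dashed lines mark a fold change of 1.5, and the black diamond marks ADI1, the called member, at 1.10.

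Of the 9 roles, proline and ornithine enzymes had the highest median difference (0.91 log2, 3 of 4 above 0), followed by serine synthesis (0.65, 3 of 3) and transsulfuration (0.61, 2 of 2). Asparagine and arginine enzymes had a median of 0.39 (2 of 3), cytosolic folate enzymes 0.20 (3 of 4 tested), polyamine and salvage enzymes 0.17 (4 of 7), the methionine cycle 0.11 (3 of 5), glycine cleavage 0.10 (2 of 3) and mitochondrial folate enzymes -0.07 (2 of 5). These medians describe small groups chosen with results of these data known and carry no test.

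**Figure D2:**
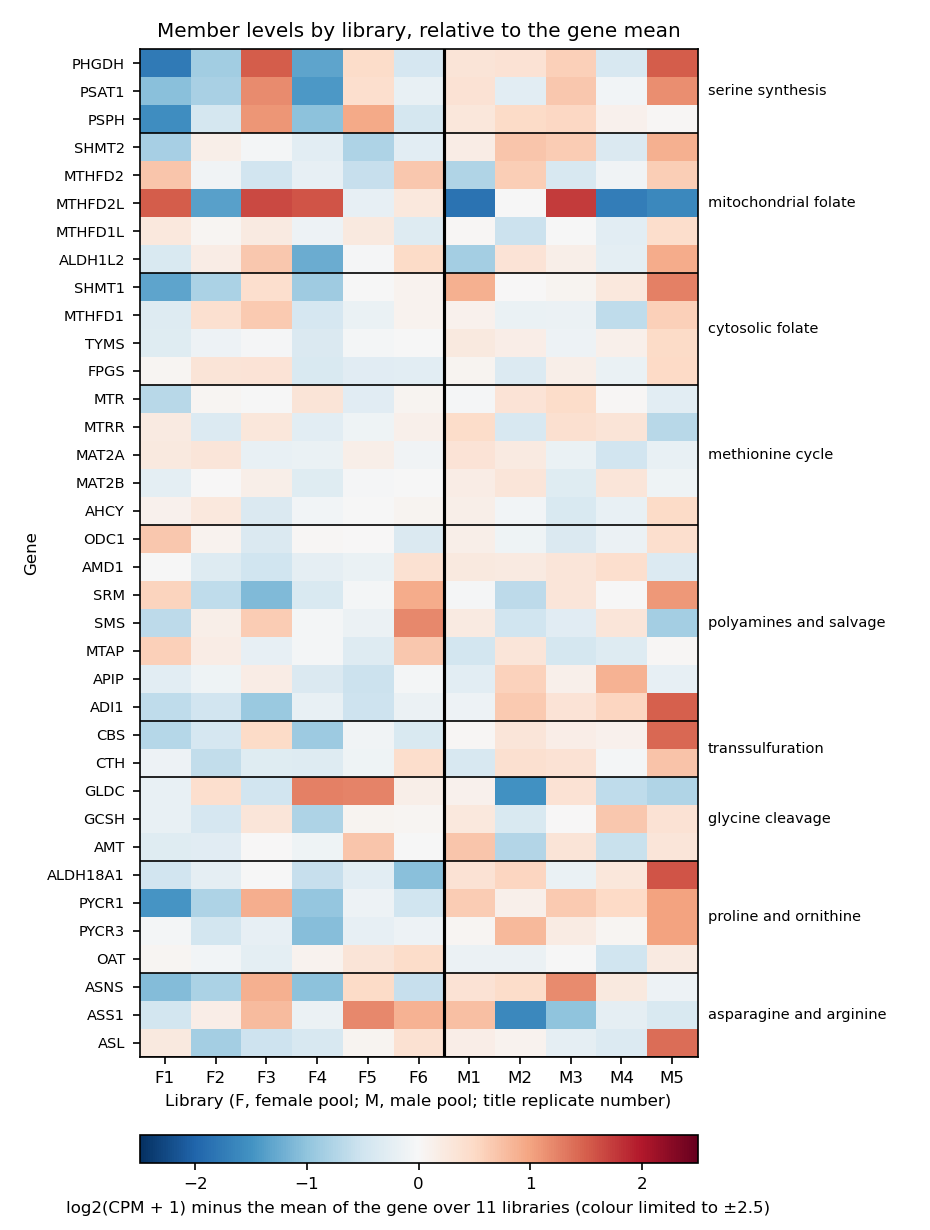
Level of each tested member (rows, grouped by role) in each library (columns, F for female and M for male pools with their replicate number). Colour is log2(CPM + 1) minus the gene's mean over the 11 libraries, limited at ± 2.5, and male replicate 5 holds the highest value of 15 of the 36 genes.

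The called member belongs to the methionine salvage pathway, which returns the methylthioadenosine left by polyamine synthesis to methionine. ADI1, the acireductone dioxygenase of that pathway (chromosome 8, 111039144 to 111045469, ARS-UCD2.0), was counted at 24.2 to 42.2 CPM in females, with a median of 32.9 CPM. The males stood at 42.8, 74.5, 60.1, 68.4 and 135 CPM, so the groups did not overlap, although male replicate 1 was just above the highest female and male replicate 5 was far above the other males. RefSeq places another gene across part of ADI1, and how its reads entered these counts was not tested. Female pools averaged 33.9 ± 6.82 CPM (SD, n = 6) and male pools 76.2 ± 35.1 CPM (SD, n = 5), a log2 fold change of 1.10 with a standard error of 0.25 (edgeR's quasi-likelihood test, Benjamini-Hochberg adjusted p = 0.0627, and 0.00225 with DESeq2). Without male replicate 5 it was 0.88 (adjusted p = 0.0619, edgeR). Within library numbers 1, 2 and 3 the log2 difference was 0.83, 0.93 and 1.38, and number 2 held male replicate 3 alone. Over the 11 fits in which 1 library was absent, ADI1 was called in 5, with adjusted p from 0.0525 to 0.174 over them in edgeR and log2 fold changes from 0.88 to 1.23.

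The other salvage enzymes did not pass the test. APIP, the dehydratase that acts before ADI1, was counted at 116 to 193 CPM in females (median 150 CPM) and at 142, 254, 186, 310 and 147 CPM in males, with a log2 fold change of 0.46 (SE 0.23), or 0.23 without male replicate 4. MTAP, which cleaves methylthioadenosine, was lower in males by the fit at -0.39 (SE 0.20), with a female mean of 309 ± 90.7 CPM (SD, n = 6) and a male mean of 244 ± 59.2 CPM (SD, n = 5). The ratio of ADI1 to APIP counts lay between 0.125 and 0.312 in female pools and between 0.221 and 0.921 in male pools, and only male replicate 5, at 0.921, was above 0.324.

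The polyamine enzymes showed no separation by sex. ODC1, the ornithine decarboxylase that commits ornithine to polyamines, averaged 641 ± 184 CPM in the 6 females and 622 ± 134 CPM (SD) in the 5 males, with a difference of -0.08 log2 (SE 0.19). AMD1, which decarboxylates S-adenosylmethionine, stood at 316, 312, 327, 358 and 209 CPM in males and at 189 to 346 CPM in females (median 233 CPM), with a log2 fold change of 0.30 (SE 0.19). SRM, the spermidine synthase, was counted at 110 to 447 CPM in females (median 205 CPM) and at 232, 149, 292, 233 and 500 CPM in males. It varied 4.55-fold over the libraries of both sexes, and its sex difference was 0.17 log2 (SE 0.32). SMS, the spermine synthase, is the X-linked member (X chromosome, 121317045 to 121367225). Its levels were 136 to 497 CPM in females (median 224 CPM) and 253, 153, 176, 266 and 119 CPM in males, and the log2 fold change of -0.43 (SE 0.32) did not pass the test (edgeR's quasi-likelihood test, Benjamini-Hochberg adjusted p = 0.624). It was -0.14 without female replicate 6 and -0.23 without male replicate 5. The SRM to SMS ratio was 0.329 to 2.55 in the female pools and 0.875 to 4.20 in the male pools, the last in male replicate 5.

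In proline synthesis, PYCR3, PYCR1 and ALDH18A1 were higher in males at an unadjusted p under 0.05 without being called. PYCR3, which reduces pyrroline-5-carboxylate to proline in the cytosol (chromosome 14, 1101614 to 1108734), was counted at 33.4 to 68.0 CPM in females (median 60.9 CPM) and at 73.1, 124, 81.9, 73.0 and 143 CPM in males. All males were above all females, with female replicate 1 closest to the males. Its log2 fold change was 0.77 (SE 0.23, edgeR's quasi-likelihood test, Benjamini-Hochberg adjusted p = 0.158, and 0.0574 with DESeq2). PYCR1, a mitochondrial enzyme of the same reaction, was a low gene, with 9 to 173 counts per library. It stood at 6.21, 4.12, 6.31, 5.64 and 8.38 CPM in males and at 0.685 to 7.78 CPM in females (median 2.03 CPM), and all females but replicate 3 were below all males. The fitted difference was 1.39 log2 (SE 0.49, adjusted p = 0.238 in edgeR and 0.0749 in DESeq2). Without female replicate 3 it was 1.77 and called (adjusted p = 0.0743, edgeR).

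ALDH18A1, the synthase that makes pyrroline-5-carboxylate from glutamate, was counted at 4.41 to 10.1 CPM in females (median 7.66 CPM). In males it was at 13.2, 15.2, 8.88, 12.5 and 31.9 CPM, and male replicate 3 alone fell inside the female range. The fitted difference was 1.05 log2 (SE 0.36, adjusted p = 0.223 in edgeR's quasi-likelihood test and 0.0713 in DESeq2), and 0.69 (SE 0.27) without male replicate 5. OAT, the ornithine aminotransferase that joins ornithine to the same intermediate, had a log2 fold change of -0.21 (SE 0.16), averaging 338 ± 60.5 CPM in the 6 females and 292 ± 51.2 CPM (SD) in the 5 males. The ratio of PYCR1 to PYCR3 counts was 0.0112 to 0.128 in females and 0.0341 to 0.0859 in males, so this ratio of RNA counts overlapped between the sexes.

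**Figure D3:**
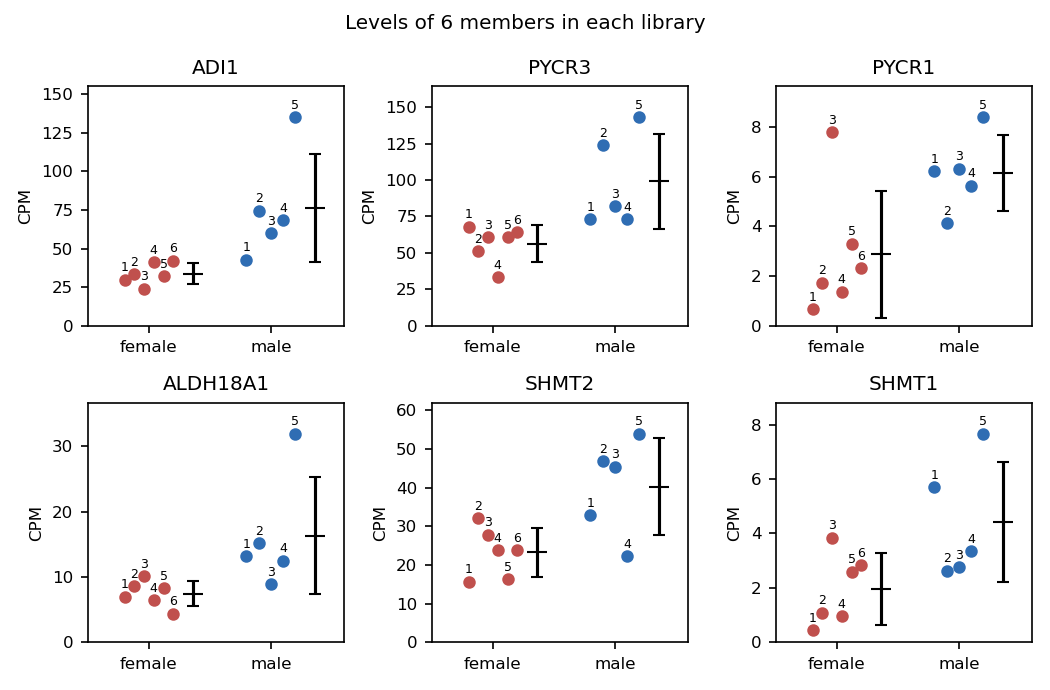
CPM of 6 members in each library. Points are libraries labelled with their replicate number, female on the left and male on the right, and the bars beside them are the mean ± SD (n = 6 and n = 5). ADI1 and PYCR3 do not overlap between the sexes, and male replicate 5 is the highest point in all 6 panels.

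In serine synthesis, pools of 1 sex differed widely from each other. PHGDH, the first and committed enzyme, was at 14.3, 27.8, 149, 19.9, 71.3 and 38.1 CPM in female replicates 1 to 6 and at 64.8, 66.4, 78.5, 38.6 and 148 CPM in the males. PSAT1, the aminotransferase of the next step, was at 62.4, 74, 297, 47.6, 175 and 114 CPM in the same females and at 168, 108, 209, 125 and 292 CPM in the males. PSPH, the phosphatase that releases serine, was at 50.6, 111, 323, 73.2, 290 and 110 CPM in females and at 184, 210, 216, 163 and 154 CPM in males. Female replicates 3 and 5 were the highest females for all of these enzymes, and replicates 1 and 4 were the lowest females for PHGDH, PSAT1 and PSPH alike. All 5 males were above the female median for each enzyme, and all 3 overlapped the female range. The log2 fold changes were 0.90 (SE 0.52), 0.65 (SE 0.39) and 0.38 (SE 0.42), with Benjamini-Hochberg adjusted p of 0.499, 0.518 and 0.752 in edgeR's quasi-likelihood test. Single libraries moved these values, since PHGDH was at 0.56 log2 without male replicate 5 and PSAT1 at 1.02 without female replicate 3. PSPH was at 0.11 log2 without female replicate 1, at 0.68 without female replicate 3 and at 0.75 without female replicate 5.

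The spread within a sex was wide for genes of this level. The SD of log2 CPM between libraries of 1 sex was 1.03 for PHGDH, 0.83 for PSAT1 and 0.81 for PSPH. For tested genes with a mean CPM within a factor of 2 of theirs the median SD was 0.34, 0.30 and 0.30, and 98.1%, 97.2% and 96.9% of those genes varied less. ASNS, the asparagine synthetase, was placed alike, with an SD of 0.70 against a median of 0.29. It stood at 105 to 415 CPM in females (median 140 CPM), highest in replicates 3 and 5, and at 289, 311, 509, 267 and 205 CPM in males. The log2 fold change of ASNS was 0.76 (SE 0.34, adjusted p = 0.363 in edgeR). Over all 36 tested members the median SD was 0.46, close to the 0.48 of all tested genes, so the wide spread belonged to some members and not to the whole set.

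**Figure D4:**
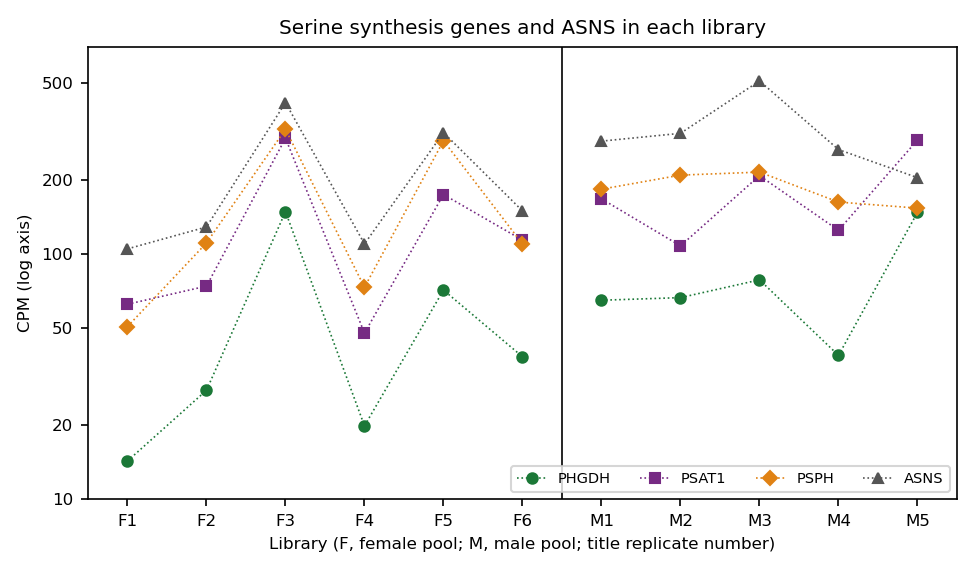
CPM (log axis) of PHGDH, PSAT1, PSPH and ASNS in each library, female pools F1 to F6 and male pools M1 to M5. Dotted lines join the values of 1 gene to help the eye, since replicates have no order, and the female pools F3 and F5 are high and F1 and F4 low for all 4 genes.

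The serine enzymes varied together. Within the roles, 63 pairs of members were correlated over the 11 libraries on log2 CPM, and 4 pairs had a Benjamini-Hochberg adjusted p under 0.05, each with a positive r. The median r over all pairs of tested genes was 0.00, and 0.136% of them reached 0.9. PHGDH and PSAT1 had Pearson's r = 0.95 (permutation p = 3.0e-05, adjusted 0.0019) and Spearman's rho = 0.94 (permutation p = 9.0e-05, adjusted 0.0057). Without female replicates 1 and 4, the libraries farthest from the PHGDH median, r was 0.93, and with the sex means removed it was 0.94. PHGDH and PSPH had r = 0.86 (permutation p = 0.00073, adjusted 0.015) and rho = 0.85 (permutation p = 0.0019, adjusted 0.040). Their r was 0.67 without the same libraries and 0.84 with the sex means removed. For PSAT1 and PSPH, r was 0.80 (adjusted permutation p = 0.045) and 0.77 with the sex means removed, and the adjusted p of rho, 0.10, missed the threshold.

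Among all 12801 other tested genes, those most like PHGDH over the 11 libraries were GARS1, a glycyl-tRNA synthetase (r = 0.97, rho = 0.97), PSAT1, and SLC1A4, a transporter of neutral amino acids (r = 0.94, rho = 0.98). AARS1, the alanyl-tRNA synthetase, had r = 0.94, ZBTB48, a telomere-binding zinc finger protein, r = 0.93, PCK2, the mitochondrial phosphoenolpyruvate carboxykinase, r = 0.93, and CARS1, the cysteinyl-tRNA synthetase, r = 0.91. The zinc finger gene ZSCAN21 (r = 0.90) and OSGEP, of a tRNA-modifying complex (r = 0.89), ranked 9 and 10. The members PYCR1, CBS, SHMT1 and PSPH ranked 8, 11, 16 and 20 in that order, with r of 0.91, 0.89, 0.86 and 0.86. These genes were chosen as the highest of many and after their values were seen, so their r is a description with no test. All libraries enter every r, and the deepest, male replicate 5, was among the highest for PHGDH. ATF4, the transcription factor of the amino acid response, was at 124 to 464 CPM in females, highest in replicate 3, and at 240, 285, 342, 339 and 348 CPM in males (log2 fold change 0.45, SE 0.24, adjusted p = 0.465 in edgeR).

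Both serine hydroxymethyltransferases were higher in males at an unadjusted p under 0.05 without being called. SHMT2, the mitochondrial serine hydroxymethyltransferase, was at 15.7 to 32.1 CPM in females (median 23.9 CPM) and at 32.9, 46.9, 45.4, 22.2 and 53.9 CPM in males. All males but replicate 4 were above all females. Its log2 fold change was 0.83 (SE 0.27, adjusted p = 0.195 in edgeR's quasi-likelihood test and 0.0776 in DESeq2). The log2 difference within library numbers 1, 2 and 3 was 0.80, 0.82 and 0.80. Number 2 held male replicate 3 alone, and the value for number 3 averaged male replicates 4 and 5, at 22.2 and 53.9 CPM. Over the same numbers PYCR3 was at 0.69, 0.86 and 0.71 log2, but other members were less even. ALDH18A1 was at 0.86, 0.13 and 1.69, ASNS at 1.36, 1.25 and 0.11, and MTHFD2L at -1.03, 0.13 and -1.74. SHMT1, the cytosolic enzyme, was near the lower limit of the test, with 6 to 158 counts per library, at 0.457 to 3.85 CPM in females (median 1.84 CPM) and 5.71, 2.64, 2.77, 3.34 and 7.66 CPM in males. Its log2 fold change was 1.32 (SE 0.54, adjusted p = 0.321 in edgeR). The SHMT2 to SHMT1 ratio was 6.11 to 29.6 in female pools and 5.70 to 17.1 in male pools, which overlapped.

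MTHFD2L stood against the direction of most members. It encodes a mitochondrial methylenetetrahydrofolate dehydrogenase and cyclohydrolase, a relative of MTHFD2. It was counted at 172, 22.7, 188, 178, 51.5 and 72.0 CPM in female replicates 1 to 6 and at 15.8, 59.2, 201, 17.2 and 18.9 CPM in males. Males 1, 4 and 5 were below every female, while male replicate 3 was the highest of all libraries, and the whole range was 12.7-fold. Its log2 fold change was -1.11 (SE 0.49, adjusted p = 0.360 in edgeR), -1.57 without male replicate 3 and -0.53 without female replicate 1. Its SD within a sex, 1.40, was the widest of the members, and 99.2% of genes of like level varied less.

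MTHFD2 itself differed little between the sexes. MTHFD2 stood at 188 to 452 CPM in females (median 253 CPM) and at 166, 428, 213, 263 and 429 CPM in males, with a log2 fold change of -0.07 (SE 0.29). The MTHFD2 to MTHFD2L ratio was therefore 1.08 to 11.5 in female pools and 1.06 to 22.6 in male pools. The tested gene most like MTHFD2L over the libraries was EPGN, a growth factor of the EGF family, with r = 0.97 and rho = 0.92 (r = 0.96 without male replicates 1 and 4). EPGN starts 75 bases after the end of MTHFD2L on chromosome 6 (89093063 to 89244946 for MTHFD2L and 89245021 to 89253063 for EPGN). It was a low gene, with 531 counts in all against 12475 for MTHFD2L. EPGN was at 10.4, 0, 8.43, 5.64, 1.0 and 3.90 CPM in females and at 0, 2.75, 8.95, 0 and 0 CPM in males, so the libraries without EPGN counts were those with the lowest MTHFD2L. EREG, the next gene, starts 62007 bases after MTHFD2L and had r = 0.36 with it from 90 counts in all. Of the 19 other genes of the table within 500000 bases, 7 were tested, and RASSF6, CXCL5 and PF4 among them had r of -0.01, -0.26 and 0.35 with MTHFD2L. All of the tested ones, like MTHFD2L, were lower in males by the fit. Their log2 fold changes ran from -0.65 (LOC100847175) to -2.07 (EPGN), and none was called (adjusted p from 0.223 to 0.634 in edgeR). Whether EPGN and MTHFD2L counts come from 1 set of transcripts was not tested.

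**Figure D5:**
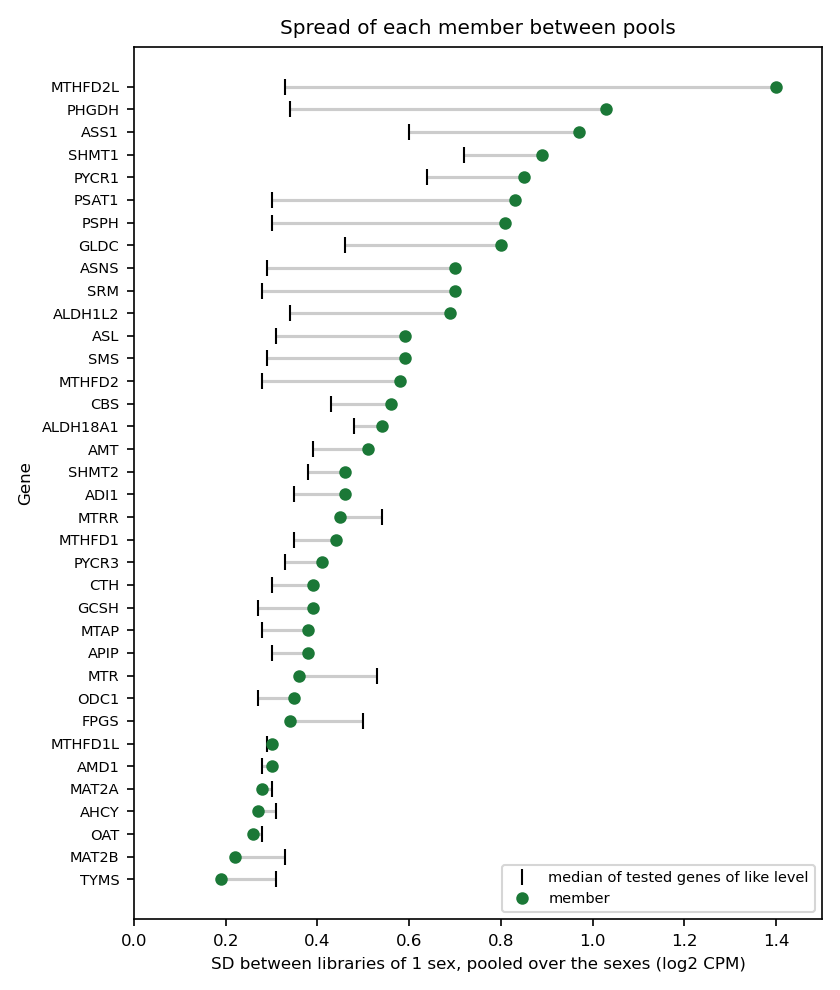
Spread of each member between pools. Green points are the SD of log2 CPM between libraries of 1 sex, pooled over both sexes, and black marks are the median SD of tested genes whose mean CPM is within a factor of 2. MTHFD2L (1.40) and PHGDH (1.03) lie farthest to the right, and TYMS (0.19) farthest to the left.

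The remaining folate enzymes differed little between the sexes. MTHFD1L, the mitochondrial formyltetrahydrofolate synthetase, was at 175 to 261 CPM in females (median 240 CPM) and at 223, 149, 216, 181 and 295 CPM in males (log2 fold change -0.11, SE 0.19). MTHFD1, the trifunctional cytosolic enzyme, was at 39.9 to 85.2 CPM in females (median 52.3 CPM) and at 58.0, 47.3, 48.3, 34.2 and 81.0 CPM in males (-0.08, SE 0.27). ALDH1L2, the mitochondrial formyltetrahydrofolate dehydrogenase, was at 22.8 to 88.6 CPM in females (median 58.9 CPM) and at 30.5, 70.2, 61.5, 46.7 and 107 CPM in males (0.09, SE 0.35). Its cytosolic counterpart ALDH1L1 had 1 count in all libraries, in female replicate 4, so it was not tested and its ratio to ALDH1L2 cannot be read beyond that count. TYMS, the thymidylate synthase, was the steadiest member, at 103 to 132 CPM in females (median 125 CPM) and 157, 149, 121, 144 and 186 CPM in males. All males but replicate 3 were above all females, and the log2 fold change was 0.30 (SE 0.14, adjusted p = 0.381 in edgeR). SHMT1 and TYMS were the other pair that varied together, with r = 0.88 (permutation p = 0.00042, adjusted 0.013) and rho = 0.85 (permutation p = 0.0014, adjusted 0.040). For this pair r was 0.81 without female replicate 1 and male replicate 5, and 0.79 with the sex means removed. FPGS, which adds glutamates to folates, had a log2 fold change of 0.10 (SE 0.26).

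The members of the methionine cycle lay between -0.13 and 0.27 log2, and none passed the test. MAT2A, the catalytic subunit of the S-adenosylmethionine synthetase outside the liver, was at 168 to 237 CPM in females (median 196 CPM) and at 243, 223, 170, 136 and 168 CPM in males. MAT2B, its regulatory subunit, was at 61.5 to 84.2 CPM in females (median 74.7 CPM) and at 86.4, 94.1, 61.5, 93.4 and 70.4 CPM in males. Both overlapped, with log2 fold changes of -0.13 (SE 0.13) and 0.13 (SE 0.16), and the MAT2A to MAT2B ratio was 2.00 to 3.54 in females and 1.45 to 2.81 in males. MTR, the methionine synthase, MTRR, its reductase, and AHCY, which hydrolyses S-adenosylhomocysteine, had log2 fold changes of 0.27 (SE 0.25), 0.11 (SE 0.31) and -0.04 (SE 0.16).

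In transsulfuration, CBS, the cystathionine beta-synthase, stood at 8.53 to 23.8 CPM in females (median 12.4 CPM) and at 17.2, 20.9, 19.1, 18.3 and 47.1 CPM in males. The difference rested in part on male replicate 5, since the log2 fold change was 0.82 (SE 0.33, adjusted p = 0.300 in edgeR) with it and 0.51 (SE 0.27) without it. CTH, which releases cysteine from cystathionine, averaged 129 ± 34.3 CPM in the 6 females and 171 ± 49.0 CPM (SD) in the 5 males, with a difference of 0.40 log2 (SE 0.21). In glycine cleavage, GLDC, the glycine decarboxylase, went the other way, at 7.92 to 28.9 CPM in females (median 14.2 CPM) and 12.3, 3.38, 15.0, 6.99 and 6.4 CPM in males. Males 2, 4 and 5 were below every female, and the log2 fold change of -0.93 (SE 0.43) did not pass the test (adjusted p = 0.383 in edgeR). GCSH, the lipoyl carrier protein of the complex, and AMT, its aminomethyltransferase, had log2 fold changes of 0.32 (SE 0.20) and 0.10 (SE 0.30).

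Of the arginine enzymes, ASS1, the argininosuccinate synthase, was at 2.89 to 11.3 CPM in females (median 6.64 CPM) and at 8.03, 0.740, 1.67, 3.58 and 3.10 CPM in males, from 7 to 140 counts per library. Male replicate 1 stood above the female median and males 2 and 3 below every female. The fitted difference was -0.99 log2 (SE 0.58, adjusted p = 0.503 in edgeR), and without male replicate 1 it was -1.86 and called higher in females (adjusted p = 0.0611). ASL, the lyase of the next step, was highest in male replicate 5 at 302 CPM, with the other libraries at 150 CPM or below, and had a log2 fold change of 0.39 (SE 0.28).

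Male replicate 5 entered many of these differences. It held the highest value of 15 of the 36 tested members (41.7%), against 24.9% of all tested genes, and the lowest value of 2 members (5.56%), against 26.8% of all tested genes. The lowest values were most often in female replicate 4 (8 members, 22.2%, against 9.42% of all tested genes) and female replicate 1 (7 members, 19.4%, against 7.56%). The trophectoderm markers summed to 36145 CPM in male replicate 5 and 23154 CPM in female replicate 1, the highest library of each sex, and to 12483 CPM in female replicate 4. The part of these markers and of depth in the members' differences was not tested. Without male replicate 5 the values of PYCR3, SHMT2, ALDH18A1 and PYCR1 were 0.61, 0.60, 0.69 and 1.30 log2, in the same direction as with it. ALDH1L2 turned to -0.13, SRM was at 0.00 and PHGDH at 0.56 log2 without that library.

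The members were also set beside 44 other enzymes, transporters and inhibitors of the same pathways, of which 37 were tested, 30 of them above 0 (50.5% of all tested genes were). Their median log2 fold change was 0.25. SAT1, the X-linked acetyltransferase that starts polyamine breakdown (X chromosome, 119431931 to 119434979), fell in males and was the 1 gene called in this list. Of all 12802 tested genes, 192 (1.5%) were called higher in females, and only 44 of those were on autosomes. SAT1 was at 178 to 454 CPM in females (median 418 CPM) and at 96.2, 196, 122, 160 and 224 CPM in males. All males were below the female median, and the highest males reached into the female range set by replicates 3 and 5. The log2 fold change was -1.21 (SE 0.29, edgeR's quasi-likelihood test, Benjamini-Hochberg adjusted p = 0.0730, and 0.00286 in DESeq2), with 3 calls over the 11 fits in which 1 library was absent and adjusted p from 0.0474 to 0.221 over them.

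Higher in males, 0 of these genes were called by edgeR and 1 (MRI1) by DESeq2, and 7 of 37 had an unadjusted p under 0.05 in edgeR, among them PAICS, ADSL, FOLR1, AHCYL2, MRI1 and OAZ1. Over all tested genes these shares were 0.414%, 1.04% and 6.26%. MRI1, the isomerase that acts before APIP and ADI1 in methionine salvage, was at 17.9 to 39.0 CPM in females and at 26.6, 80.6, 58.3, 42.2 and 73.7 CPM in males (log2 fold change 1.05, SE 0.30, adjusted p = 0.139 in edgeR and 0.0260 in DESeq2). ADSL, the adenylosuccinate lyase of purine synthesis, was at 183 to 315 CPM in females and at 314, 363, 391, 404 and 396 CPM in males (0.57, SE 0.15, adjusted p = 0.102 in edgeR and 0.0404 in DESeq2). In DESeq2 it missed the call only by the fold change, at 0.58 log2. MAT1A, the liver form of the S-adenosylmethionine synthetase, and SARDH, the sarcosine dehydrogenase, had 0 counts in all libraries. Of 12 regulators of the amino acid response and growth, 11 were tested, 0 were called by edgeR or DESeq2, and TRIB3, a pseudokinase of that response, was the 1 with an unadjusted p under 0.05 in edgeR (0.70 log2, SE 0.31, adjusted p = 0.356).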

How the data were processed

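RNA-seq libraries were made from pools of expanded blastocysts, 6 female and 5 male, and an Iso-seq sample of 4-cell embryos was not used. Trimming (fastp 0.20.0), alignment to ARS-UCD2.0 with at most 3 mismatches (STAR 2.7.10b) and counting on genes (featureCounts) were done by the authors, who deposited raw counts without normalization. The strand setting of the counting is not given in the sources used here, so reads of overlapping or antisense genes cannot be told apart. RefSeq places another gene across part of ADI1, SHMT1, SHMT2, TYMS, ASL and GCSH, and also across part of the neighbour PAICS. Symbols were joined to RefSeq for positions (30271 of 32637 matched, and all 37 members).

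For the sex comparison, edgeR 4.0.16 was run in R 4.3.3 (filterByExpr by sex, TMM factors, quasi-likelihood test, Benjamini-Hochberg adjustment over 12802 genes). The common biological coefficient of variation was 0.403. The study's methods used the collection week as a covariate. As the labels give no week, the library number (1 to 3) served as the block. Deviations of libraries with the same number correlated from -0.11 to 0.35, with 4 of 10 pairs over 0.1, so the numbers are not shown to pair the samples. Log2 CPM used a prior count of 2, ratios used counts plus 1, and permutation tests of correlations (two-sided) drew 100000 resamples with python 3.11.15, numpy 2.4.6, pandas 2.3.3 and scipy 1.17.1. The permutations shuffled all libraries freely across sexes and library numbers, so a shared sex difference enters their p-values. Alternatives were DESeq2 1.42.0, a fit without the block, a block by replicate number, TMM factors from autosomal genes, RLE factors, looser and stricter count filters, an FDR of 0.05, a pseudocount of 0.5 for ratios, and fits without each library. Exon lengths were not at hand, so counts and ratios of different genes are not corrected for length. Ratios are therefore read only between libraries.

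The members and lists were chosen with earlier results of these data known. Values in each male library are given for members that were called, had an unadjusted p under 0.05, did not overlap between the sexes, entered a ratio, or were among the 5 most variable with a mean of at least 5 CPM. Female values of these members are given as a range and median, or in each library for PHGDH, PSAT1, PSPH and MTHFD2L. Neighbours are named when called or at an unadjusted p under 0.05, except 1 that is not reported here. Other genes, such as EPGN, those most like PHGDH, ATF4, GLDC and TYMS, were named after their values were seen. A count of 0 is read against a limit of 3 counts, a limit for counting error alone, because amplified reads without molecular identifiers can come from 1 molecule.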

Additional observations from a re-analysis of the deposited data

Results flagged for a closer look

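In each sex the highest and lowest library of every tested member was compared with the nearest of the others by Dixon's criterion on log2 CPM. By it 3 of 72 groups had a library that stood apart, where chance gives about 1 in 20 groups. CBS was at 47.1 CPM in male replicate 5 and at 17.2 to 20.9 CPM in the other males. AMD1 was at 209 CPM in male replicate 5 and at 312 to 358 CPM in the other males, so the same library was the high one for one enzyme and the low one for another. AMT was at 46.2 CPM in female replicate 5 and at 22.8 to 28.6 CPM in the other females.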

How the results depend on the processing

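ADI1 was called higher in males in every alternative that kept all libraries except the FDR of 0.05, under which 0 members were called in either direction. DESeq2 called 5 members in males, and the test of every gene with at least 1 count (23857 genes) called 8 in males (PHGDH, PSAT1, SHMT2, ADI1, ALDH18A1, PYCR1, PYCR3 and ASNS) and 2 in females (MTHFD2L and GLDC), with 209 (0.876%) and 534 of all genes called. In that fit the adjusted p of MTHFD2L was 3.04e-05 although its libraries overlap between the sexes, and the looser filter also changes the dispersion estimate that genes share. Over the fits without 1 library, member calls ran from 0 to 2 in males and from 0 to 1 in females (ASS1, without male replicate 1). ADI1 lost its call when female replicate 1, 2, 5 or 6, male replicate 2 or male replicate 3 was absent. Of the neighbours and regulators, called 0 in males and 1 in females, DESeq2 called 1 and the looser filter 1 in males (MRI1), and the FDR of 0.05 called 0 in females. Without 1 library these counts ran from 0 to 1 in each direction. Over all genes, calls in males ran from 15 without male replicate 3 to 92 without male replicate 5, and calls in females from 80 to 272. Without 1 library, members that were not called and lay near 0 changed sign: MTHFD2 ran from -0.26 to 0.11, MTHFD1L from -0.26 to 0.01, MTHFD1 from -0.32 to 0.05, ALDH1L2 from -0.13 to 0.32 and SRM from -0.14 to 0.44. The median over the members was between 0.16 and 0.31 over all fits. The cause of these changes was not tested.

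Without the replicate block, 2 neighbours (ADSL and MRI1) were called in males and the calls over all genes were 96 and 230. With a replicate block by replicate number, 0 neighbours were called in females, calls were 24 and 108 over all genes, and MTHFD2 was at 0.14. ADI1 remained the 1 member called in both fits. Of 5 pairs of libraries with the same replicate number, 2 had a correlation of deviations over 0.1 (range -0.11 to 0.35). These numbers are therefore not shown to pair the samples, and so few pairs cannot settle whether libraries shared a collection week.

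SHMT1, ASS1 and PYCR1 had 6, 7 and 9 counts in their lowest library, and ALDH1L1 had 1 count in all.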
